A study of Mus musculus with 48 samples.

Results

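The TAM receptors Mertk, Axl and Tyro3 and the bridging ligands Gas6, Pros1 and Mfge8 were followed through red pulp macrophage (RPM) differentiation in RNA sequencing of splenic monocytes, pre-RPMs and RPMs. These 6 genes were chosen by symbol, 3 receptors and 3 ligands, out of 54735 genes counted in each library, and all 6 were listed in all 24 libraries. The mice were Balb/c and 10 weeks old, either wild type (WT) or labelled Il1rl1-/-, meaning deficient in the receptor for the cytokine IL-33. Each genotype had 4 mice and each mouse gave 1 library of each cell type, so that the 6 groups held 4 libraries each. No group was treated. By their labels, all sorted cells were Ly6Glo, monocytes were CD11bhi F4/80-, pre-RPMs were CD11bhi F4/80lo, and RPMs were CD11blo/- F4/80hi. These are bulk samples, in which fewer cells of a type and less RNA per cell cannot be told apart.

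TAM receptors are receptor tyrosine kinases of phagocytes. They do not see a dying cell directly but bind Gas6 or protein S (the product of Pros1), whose vitamin K-dependent Gla domains attach to phosphatidylserine on the surface of the dying cell. Mertk is known for engulfment by resident macrophages, Axl is bound by Gas6 but not by protein S, and Tyro3 is best known in the nervous system. Mfge8 does the same bridging work for alpha-v integrins instead of TAM kinases. RPMs clear aged erythrocytes, which expose phosphatidylserine.

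The library labels were checked first. Counts of Il1rl1, the targeted gene, ranged from 12 to 28 in WT monocytes and from 51 to 73 in those labelled Il1rl1-/-, and from 13 to 24 and from 42 to 76 in pre-RPMs. They ranged from 5 to 13 and from 1 to 7 in RPMs. Counts were thus higher under the Il1rl1-/- label in monocytes and pre-RPMs but not in RPMs. Counts summed over all exons cannot tell an intact transcript from an altered one, so that they do not settle the label. Every direction between genotypes given here is therefore one between labels. Total counts per library ranged from 3562367 to 6559454, and 24.4% to 38.8% of them fell on the single gene Gm42418. Counts up to 3 per library were taken as no different from 0, a limit that covers counting error only. All 5 RPM markers (Adgre1, Spic, Vcam1, Slc40a1, Cd5l) had counts in WT RPMs, where they summed to between 3279 and 4383 CPM (counts scaled to a common library size), against 81.7 to 154.2 CPM in WT pre-RPMs and 29.3 to 57.4 CPM in WT monocytes. Monocyte libraries also held NK cell markers (509.7 to 1845 CPM over both genotypes) and neutrophil markers (591.8 to 1947 CPM), far above the same lists in pre-RPMs (33.8 to 152.6 and 81.4 to 256.0 CPM). Plasma cell markers summed to 438.1 to 1893 CPM in monocytes and 152.1 to 471.8 CPM in pre-RPMs, with overlap. Monocyte markers (Itgam, Ly6c2, Ccr2, Csf1r, Cx3cr1) summed to 405.4 to 1109.5 CPM in WT monocytes and 1087.5 to 1448.7 CPM in WT pre-RPMs. Under the Il1rl1-/- label, they summed to 541.2 to 1192.4 CPM in monocytes and 1342.1 to 1510.1 CPM in pre-RPMs. The part of these lists in the monocyte levels below was not tested.

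In GRCm38, Mertk (ENSMUSG00000014361) lies on chromosome 2 from 128698956 to 128802894 on the plus strand, Axl (ENSMUSG00000002602) on chromosome 7 from 25757273 to 25788705 on the minus strand, and Tyro3 (ENSMUSG00000027298) on chromosome 2 from 119797733 to 119818104 on the plus strand. Of the ligands, Gas6 (ENSMUSG00000031451) lies on chromosome 8 from 13465374 to 13494490 on the minus strand, Pros1 (ENSMUSG00000022912) on chromosome 16 from 62854307 to 62929346 on the plus strand, and Mfge8 (ENSMUSG00000030605) on chromosome 7 from 79133768 to 79149060 on the minus strand. Reads were counted over all annotated exons, coding and untranslated. Gas6 shared 34 exonic bases with Tmem255b on the opposite strand, and the other members shared none.

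The 250 bases before the start site of the 5 members that moved between cell types are shown, because Mertk, Axl and Gas6 were high in RPM libraries and Pros1 and Mfge8 in the others. They are RefSeq promoters of GRCm38.p6, written 5′ to 3′ on the strand of the gene, with all 6 members matched by symbol. Capitals mark the motifs found, searched on both strands. Mertk, Axl and Gas6, the members higher in RPMs, are at chr2:128698665-128698914, chr7:25788734-25788983 and chr8:13494536-13494785.
Mertk: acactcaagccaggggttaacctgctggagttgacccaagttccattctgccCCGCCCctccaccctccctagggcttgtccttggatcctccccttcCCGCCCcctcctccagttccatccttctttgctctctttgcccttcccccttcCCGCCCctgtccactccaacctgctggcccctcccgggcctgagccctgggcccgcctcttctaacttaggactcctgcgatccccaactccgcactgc
Axl: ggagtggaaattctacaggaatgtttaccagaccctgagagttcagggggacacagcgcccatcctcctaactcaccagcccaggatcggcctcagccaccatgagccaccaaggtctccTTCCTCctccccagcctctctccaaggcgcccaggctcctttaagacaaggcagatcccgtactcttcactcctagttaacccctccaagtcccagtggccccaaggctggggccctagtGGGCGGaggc
Gas6: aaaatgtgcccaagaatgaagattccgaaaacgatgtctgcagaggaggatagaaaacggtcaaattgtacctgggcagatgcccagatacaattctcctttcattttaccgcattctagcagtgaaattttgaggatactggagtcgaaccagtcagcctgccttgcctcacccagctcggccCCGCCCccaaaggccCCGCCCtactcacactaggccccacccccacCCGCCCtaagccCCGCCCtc
Pros1 and Mfge8, the members lower in RPMs, are at chr16:62854057-62854306 and chr7:79149061-79149310.
Pros1: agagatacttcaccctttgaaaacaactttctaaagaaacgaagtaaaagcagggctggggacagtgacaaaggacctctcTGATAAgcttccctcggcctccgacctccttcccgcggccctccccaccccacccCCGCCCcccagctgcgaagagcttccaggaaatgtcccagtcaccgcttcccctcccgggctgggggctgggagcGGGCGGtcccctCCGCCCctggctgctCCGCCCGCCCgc
Mfge8: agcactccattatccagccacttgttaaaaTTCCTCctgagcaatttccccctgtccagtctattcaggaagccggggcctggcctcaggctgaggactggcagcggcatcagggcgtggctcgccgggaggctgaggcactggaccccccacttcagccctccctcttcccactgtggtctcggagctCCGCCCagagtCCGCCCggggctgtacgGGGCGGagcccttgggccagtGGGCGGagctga
The GC box (GGGCGG, or CCGCCC on the other strand) was in each of the 5 windows, 3 times in Mertk, 1 time in Axl, 4 times in Gas6, 5 times in Pros1 and 4 times in Mfge8, with the last pair in Pros1 overlapping. Of 32817 mouse promoter windows of the same length, 32.7% held at least 1. The PU box core (GAGGAA, or TTCCTC on the other strand) was found 1 time in Axl and 1 time in Mfge8, and in 23.3% of all windows. The GATA motif TGATAA was found only in Pros1 among the 5, 163 bases before the start, and in 7.95% of all windows. The letters of AGATAA (9.99% of windows), the AP-1 motif TGANTCA (6.75%) and the E box CACGTG (6.02%) were in none of the 5. A motif here is a match of letters and not a measured site.

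Mertk was close to undetected before the RPM stage and abundant in it. In WT monocytes of mice 1 to 4, its counts were 3, 4, 1 and 2. In WT pre-RPMs they were 1, 3, 22 and 8, and in WT RPMs 2320, 2206, 1939 and 2359. In the libraries labelled Il1rl1-/-, they were 2, 0, 0 and 0 in monocytes, 2, 2, 1 and 7 in pre-RPMs, and 2243, 3472, 2340 and 2542 in RPMs. Every RPM library therefore stood far above every other library, and within RPMs the genotypes overlapped. As CPM scaled with TMM factors, the level in RPMs was 500.6 ± 40.8 (SD, n = 4) in WT and 531.2 ± 29.1 in those labelled Il1rl1-/-, and the order of the remaining 4 groups was not resolved, since each overlapped with its neighbour.

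Axl was already counted in monocytes and was higher at each later stage. Counts in WT monocytes were 29, 20, 45 and 55, in WT pre-RPMs 68, 59, 256 and 138, and in WT RPMs 7600, 6845, 6319 and 6979. Under the Il1rl1-/- label, they were 14, 20, 39 and 46, then 120, 130, 95 and 168, then 7958, 9948, 7824 and 7914. The 3 cell types did not overlap in either genotype, and the genotypes overlapped within each cell type. The level was 6.75 ± 3.05 CPM in WT monocytes, 31.7 ± 22.2 in WT pre-RPMs and 1575 ± 127 in WT RPMs (SD, n = 4).

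Tyro3 was at or near the limit of detection in every group. Its counts in WT monocytes were 6, 7, 3 and 15, the last the highest of any library, and its group means lay between 0.232 CPM in RPMs labelled Il1rl1-/- and 1.31 CPM in WT monocytes. No fit of a pair of groups kept it. Neighbouring groups overlapped at each step of its order, and expression below this limit was not detectable at this depth.

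Gas6, the ligand that binds all 3 TAM kinases, followed the receptors. Its counts in WT were 2, 3, 0 and 7 in monocytes, 5, 5, 10 and 6 in pre-RPMs, and 102, 94, 62 and 112 in RPMs. Counts under the Il1rl1-/- label were 6, 2, 4 and 1, then 4, 6, 3 and 4, then 139, 191, 145 and 130. The RPM libraries stood apart from all others, and the 2 RPM groups did not overlap in CPM, at 20.8 ± 3.95 in WT and 30.5 ± 1.87 in those labelled Il1rl1-/- (SD, n = 4).

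Pros1, which encodes protein S, a plasma anticoagulant as well as a TAM ligand, went the other way. Its counts in WT were 48, 33, 64 and 69 in monocytes, 63, 53, 77 and 54 in pre-RPMs, and 5, 4, 1 and 4 in RPMs. Under the Il1rl1-/- label, they were 28, 47, 101 and 79, then 92, 129, 90 and 118, then 6, 4, 0 and 1. Pre-RPMs labelled Il1rl1-/- held the highest level of the 6 groups, 23.1 ± 2.46 CPM, followed by WT pre-RPMs at 15.1 ± 2.64 CPM (SD, n = 4), and these groups did not overlap. RPMs were at 0.766 ± 0.347 CPM in WT and 0.553 ± 0.594 CPM in those labelled Il1rl1-/-, close to the limit of detection.

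Mfge8 was lowest in RPMs. Its counts in WT were 74, 40, 26 and 55 in monocytes, 42, 16, 21 and 21 in pre-RPMs, and 15, 12, 7 and 4 in RPMs. Those labelled Il1rl1-/- held 46, 41, 36 and 30, then 28, 28, 21 and 26, then 3, 3, 4 and 2. Monocytes and pre-RPMs overlapped in both genotypes, and RPMs stood below both. The lowest level was in RPMs labelled Il1rl1-/-, 0.616 ± 0.203 CPM against 2.10 ± 0.950 CPM in WT RPMs (SD, n = 4). These did not overlap in CPM, but the lowest WT library and the highest library of that label both held 4 counts.

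**Figure D1:**
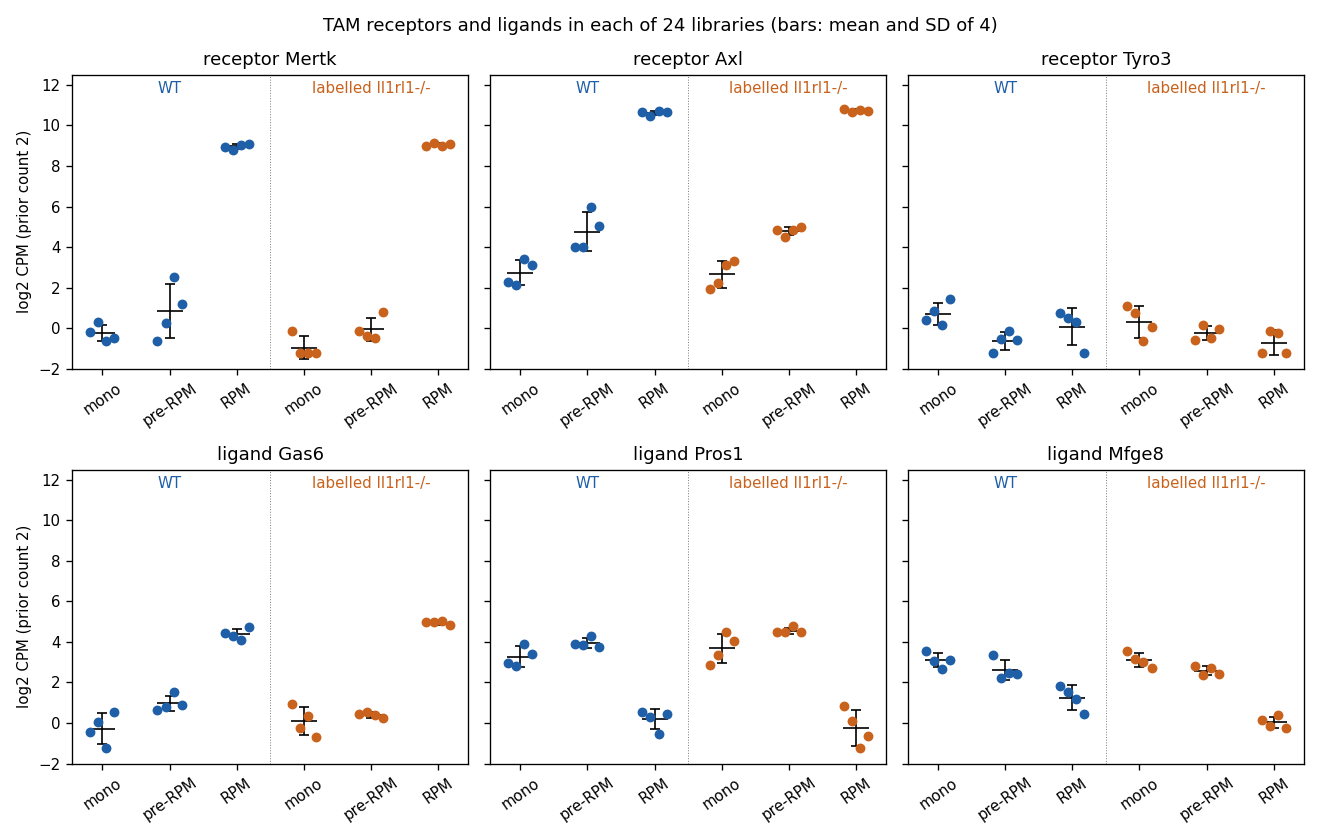
Level of each receptor (upper row) and ligand (lower row) in log2 CPM with a prior count of 2, 1 point per library for the 4 mice of each group, with the mean and SD as black bars, WT in blue and libraries labelled Il1rl1-/- in orange. Mertk, Axl and Gas6 are highest in the 8 RPM libraries, Pros1 and Mfge8 are lowest there, and Tyro3 stays near the bottom of the scale in all 24.

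At the first step, from monocytes to pre-RPMs, Axl was the member with the largest difference among those that could be tested, and it was called under the Il1rl1-/- label. Groups were compared with edgeR's quasi-likelihood F test with Benjamini-Hochberg adjustment over all genes tested, and calls between cell types required an adjusted p below 0.01 with a log2 fold change beyond 1 in either direction. Of the 6 members, 3 (Axl, Pros1 and Mfge8) passed the filter on low counts. In WT, 0 of the 3 was called, where 3.57% of 11091 genes were called and 3540 genes had an unadjusted p under 0.05. Axl missed the threshold by a small margin, with a log2 fold change of 2.24 (SE 0.46, adjusted p = 0.0104), and was higher in all 4 pre-RPM libraries than in any monocyte library. With the mouse as a block, since each mouse gave both libraries, it was 2.12 and passed (adjusted p = 0.000126), as it did with DESeq2 (2.24, adjusted p = 5.39e-05). WT pre-RPM library 3 held the highest Axl, Mertk and Gas6 counts of its group and also the highest sum of RPM markers, 154.2 CPM against 81.7 to 106.1 CPM in the other 3, and without it the log2 fold change of Axl was 1.68 (adjusted p = 0.0215). Under the Il1rl1-/- label, Axl was called at 2.09 (SE 0.26, adjusted p = 0.00027), where 4.85% of 11196 genes were called, and it ranked 12th among them by size of rise. Pros1 was at 0.64 (SE 0.24, adjusted p = 0.098) in WT and 0.74 (SE 0.27, adjusted p = 0.0763) in the others. It passed the threshold in the latter only without monocyte replicate 3 (1.05, adjusted p = 0.00688). Mfge8 was at −0.48 (SE 0.29, adjusted p = 0.276) and −0.60 (SE 0.23, adjusted p = 0.0963).

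Of the 3 members tested, Axl in WT had libraries that did not overlap between the cell types, where 20.9% of all genes tested did not overlap, and Axl and Pros1 under the Il1rl1-/- label, where 22.3% did not. The 3 members with too few counts for that fit were compared with exact 2-sided permutation tests of log2 CPM, which cannot go below p = 0.0286 with 4 against 4 libraries. In WT, Gas6 was higher in CPM in every pre-RPM library than in any monocyte library, by 1.25 in mean log2 CPM (exact permutation p = 0.0286, adjusted over 19 such tests to 0.136). The counts themselves overlapped, 0 to 7 in monocytes and 5 to 10 in pre-RPMs. After scaling, the highest monocyte library was at 1.05 CPM and the lowest pre-RPM library at 1.16 CPM. Tyro3 was lower in every WT pre-RPM library than in any WT monocyte library (p = 0.0286, exact permutation test, adjusted 0.136). The group means differed by at least 1.79-fold against the limit of 3 counts per library. WT monocyte library 3 held 3 counts, within that limit, and was not told apart from the pre-RPM libraries. Mertk overlapped between the groups (exact permutation p = 0.229). Among those labelled Il1rl1-/-, Mertk, Tyro3 and Gas6 each overlapped, with exact permutation p from 0.114 to 0.4.

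The second step, from pre-RPMs to RPMs, changed 5 of the 6 members in both genotypes, Mertk, Axl and Gas6 upward and Pros1 and Mfge8 downward, while Tyro3 could not be fitted. In WT, 24.7% of 11239 genes were called (14.0% higher and 10.7% lower), and under the Il1rl1-/- label 26.0% of 11437 (14.5% higher and 11.5% lower). The libraries of the 5 did not overlap between the cell types in either genotype, where 46.6% and 49.4% of all genes tested did not overlap. Mertk and Gas6 passed the filter through the RPM libraries alone, and Pros1 and Mfge8 through the pre-RPM libraries alone, so that these 4 had to differ to be tested and the number called or apart is a description. In WT, Mertk rose by a log2 fold change of 7.85 (SE 0.41, adjusted p = 1.84e-09), the 8th largest rise of all genes tested. Axl rose by 5.59 (SE 0.40, adjusted p = 3.82e-08), the 110th largest, and Gas6 by 3.64 (SE 0.25, adjusted p = 2.70e-08), the 322nd. Pros1 changed by −4.25 (SE 0.29, adjusted p = 2.57e-08), the 127th largest fall. Mfge8 changed by −1.54 (SE 0.37, adjusted p = 0.00306), and missed the threshold without WT pre-RPM replicate 1 (−1.21, adjusted p = 0.0149) or without WT RPM replicate 4 (−1.29, adjusted p = 0.0110). Without WT pre-RPM replicate 3, the rise of Mertk was larger, 8.91, and that of Axl was 6.15.

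In the libraries labelled Il1rl1-/-, the same step took Mertk up by a log2 fold change of 9.60 (SE 0.22, adjusted p = 4.04e-14), the 6th largest rise. Axl rose by 5.90 (SE 0.14, adjusted p = 4.51e-14) and Gas6 by 4.98 (SE 0.19, adjusted p = 5.40e-12). Pros1 changed by −5.36 (SE 0.33, adjusted p = 1.79e-09) and Mfge8 by −3.19 (SE 0.33, adjusted p = 8.82e-07). All 5 held their calls with each library left out in turn. The sizes of some folds rest on counts near the limit of 3. Under that label, Mertk had 1 to 7 counts in pre-RPMs, and in RPMs Pros1 had 0 to 6 and Mfge8 2 to 4.

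Over the whole path from monocytes to RPMs, the same 5 members were called in both genotypes, where 23.9% of 11607 genes in WT and 25.9% of 11633 in the libraries labelled Il1rl1-/- were called. Here too the number is a description, since Mertk and Gas6 passed the filter through the RPM libraries alone and Pros1 and Mfge8 through the monocyte libraries alone. This comparison shares its RPM libraries with the second step and its monocyte libraries with the first. In WT, Mertk differed by a log2 fold change of 10.04 (SE 0.25, adjusted p = 1.19e-09), the 5th largest rise, Axl by 7.85 (SE 0.33, adjusted p = 2.07e-08) and Gas6 by 5.22 (SE 0.39, adjusted p = 1.44e-06). The sizes for Mertk and Gas6 rest on WT monocyte counts of 1 to 4 and 0 to 7, near the limit of 3. Pros1 differed by −3.60 (SE 0.40, adjusted p = 2.81e-05) and Mfge8 by −1.99 (SE 0.33, adjusted p = 0.000491). In the libraries labelled Il1rl1-/-, no monocyte library exceeded 2 counts of Mertk, which was at least 807-fold higher in RPMs against the limit of 3 counts per library. Axl differed there by 8.05 (SE 0.30, adjusted p = 1.13e-09), Gas6 by 5.37 (SE 0.29, adjusted p = 1.93e-08), Pros1 by −4.57 (SE 0.56, adjusted p = 2.67e-05) and Mfge8 by −3.74 (SE 0.33, adjusted p = 1.71e-06).

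**Figure D2:**
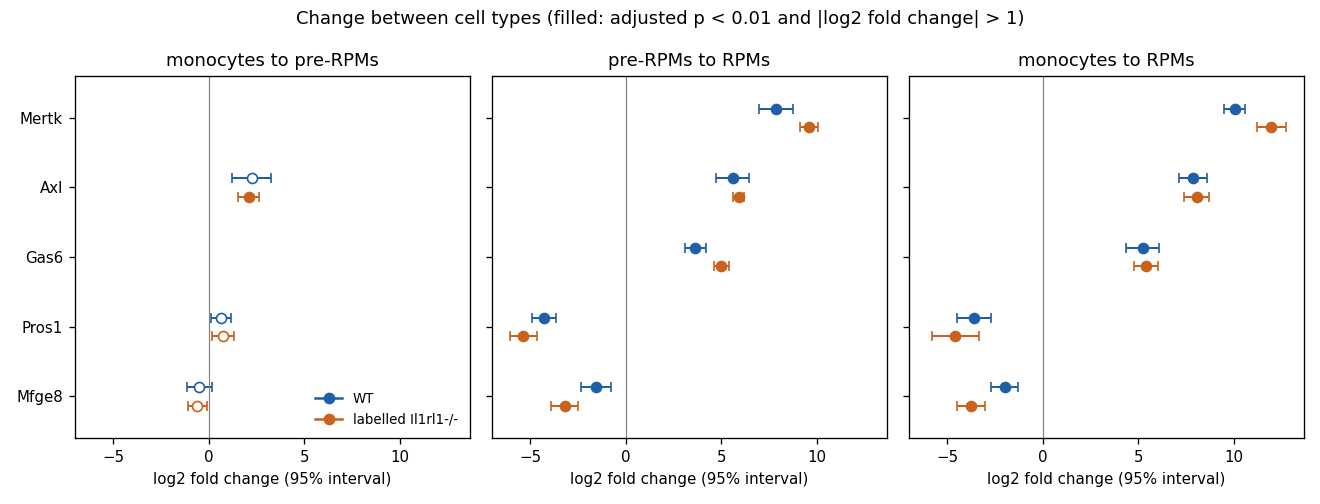
Log2 fold change with its 95% interval for the 5 members that could be fitted, in the 3 comparisons of cell types, WT in blue and libraries labelled Il1rl1-/- in orange, with filled points for called genes; the fitted Mertk value of monocytes to RPMs under the Il1rl1-/- label depends on the prior count, since its monocyte counts are at the limit of detection. At the first step only Axl lies well away from 0 (2.24 and 2.09), and at the second Mertk, Axl and Gas6 lie to the right of 0 and Pros1 and Mfge8 to the left in both genotypes.

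Markers of other cells that were higher in RPM libraries are given beside these changes. Erythroid markers summed to between 110.1 and 178.2 CPM in WT RPMs and to between 8.67 and 13.7 CPM in WT pre-RPMs, with counts on all 6 of the list. Endothelial and stromal markers summed to between 118.0 and 142.2 CPM against 16.5 to 24.2 CPM, with counts on 8 of 8 markers in WT RPMs, and Pecam1 made up 121.5 CPM of the mean. Eosinophil markers summed to between 273.6 and 398.4 CPM against 37.8 to 80.5 CPM, of which Ccr3 made up 310.4 CPM. Ccr3 rose by a log2 fold change of 3.05 (SE 0.25) at that step in WT. Prg2, on the same list, went the other way at −0.96 (SE 0.28) and was not called, so that the higher sum does not describe every marker of the list. Of the other 7 endothelial and stromal markers, Pdgfra had 24 to 30 counts per WT RPM library against 11 to 15 in WT pre-RPMs, Kdr 3 to 6, Pdgfrb 4 to 5, Cdh5 1 to 3, Col3a1 0 to 3, Col1a1 0 to 2 and Pdpn 0 to 1. The part of these markers in the levels of Mertk, Axl and Gas6 was not tested. Dendritic cell markers summed to 44.5 to 110.4 CPM in WT monocytes, 21.4 to 49.4 in WT pre-RPMs and 7.48 to 24.4 in WT RPMs. Of that list, Zbtb46 was called higher in WT RPMs than in pre-RPMs (7.02 against 2.54 CPM), and Clec9a was at −0.18. NK cell markers also summed to less, 21.9 to 50.1 CPM in WT RPMs against 81.9 to 152.6 CPM in WT pre-RPMs. Neutrophil markers did too, at 10.2 to 13.5 CPM against 81.4 to 161.1 CPM. The part of these lists in the level of Mfge8, which was lower at that stage, was not tested.

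Axl was the main TAM receptor transcript of each cell type and Gas6 was the main ligand transcript in RPMs, while Pros1 held the largest share in every pre-RPM library and no ligand led in every monocyte library. Levels of different genes were compared as CPM per kilobase of exon, and shares within the 3 receptors or within the 3 ligands carry no test. Of the summed receptor level, Axl held 78.8% ± 10.9 in WT monocytes, 93.8% ± 3.30 in WT pre-RPMs and 73.0% ± 0.933 in WT RPMs (SD, n = 4). Mertk held 5.62% ± 3.03 in WT pre-RPMs and 26.9% ± 0.949 in WT RPMs, where Tyro3 held 0.0297% ± 0.0214. In RPMs labelled Il1rl1-/-, Mertk held 26.6% ± 1.80 and Axl 73.4% ± 1.81. Over the 8 RPM libraries, the share of Axl lay between 71.2% and 75.3%. Per kilobase, Axl in WT RPMs reached 313.0 ± 25.2 CPM, the 66th highest of 12842 genes kept over all libraries, and Mertk reached 115.5 ± 9.42 CPM, the 150th.

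Of the summed ligand level, Pros1 held 53.7% ± 14.4 in WT monocytes and 66.1% ± 5.40 in WT pre-RPMs, with Mfge8 at 41.8% ± 12.9 and 22.8% ± 7.83 (SD, n = 4). The shares of the 2 overlapped in WT monocytes, where Mfge8 was above Pros1 in library 1 (55.7% against 41.5%) and library 2 (48.0% against 45.4%). In WT RPMs, Gas6 held 92.7% ± 2.61, Mfge8 5.27% ± 2.35 and Pros1 2.06% ± 0.790. In RPMs labelled Il1rl1-/-, Gas6 held 97.8% ± 1.10 and in pre-RPMs of that label Pros1 held 78.5% ± 2.41. Gas6 was a far smaller transcript than Axl or Mertk, at 8.16 ± 1.55 CPM per kilobase in WT RPMs, the 2443rd highest gene.

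**Figure D3:**
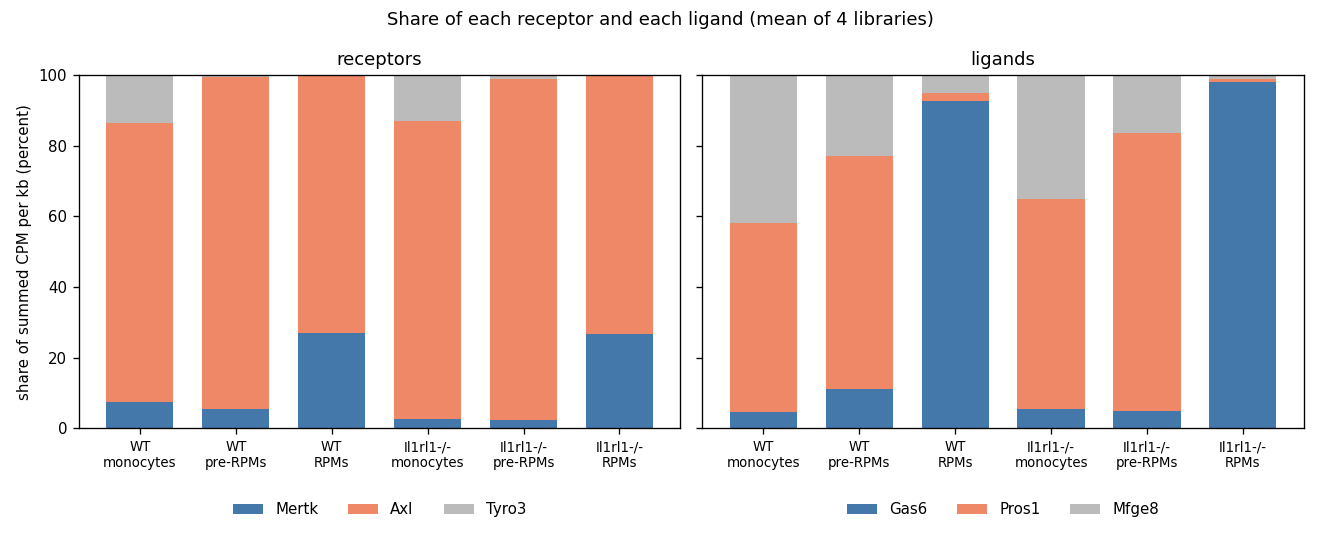
Share of each receptor (left) and each ligand (right) in the summed CPM per kilobase of its class, as stacked means of 4 libraries for each of the 6 groups. Axl fills most of the receptor bars, with Mertk at 26.9% and 26.6% in the 2 RPM groups, and in the ligand bars Gas6 takes 92.7% and 97.8% in RPMs, with Pros1 at 66.1% and 78.5% in the 2 pre-RPM groups.

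Between genotypes, no member was called in any cell type at an adjusted p under 0.05. In monocytes, 0.0614% of 11405 genes were called, in pre-RPMs 0.552% of 10698, and in RPMs 0.233% of 11150, with 410, 941 and 811 genes at an unadjusted p under 0.05. Mertk in RPMs differed by a log2 fold change of 0.08 in libraries labelled Il1rl1-/- relative to WT (95% interval −0.14 to 0.30, adjusted p = 0.934), and Axl in RPMs by 0.10 (95% interval −0.12 to 0.33, adjusted p = 0.895). Both intervals hold 0. In monocytes and pre-RPMs, the intervals of Axl were wide, from −0.96 to 0.83 and from −0.89 to 0.46. The sign of Axl in pre-RPMs turned without WT pre-RPM replicate 3 (0.35 in place of −0.21).

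Of the ligands, Gas6 was higher in all 4 RPM libraries labelled Il1rl1-/- than in any WT RPM library, by a log2 fold change of 0.54 (95% interval 0.26 to 0.82, adjusted p = 0.200), and it passed without the filter on low counts (0.57, adjusted p = 0.0102). That setting called 272 genes in all against 26. Over the 7 alternative fits with edgeR or DESeq2, the adjusted p of Gas6 ran from 0.0102 to 0.520. Pros1 was higher in all 4 pre-RPM libraries of that label than in any WT pre-RPM library, by 0.60 (95% interval 0.30 to 0.90, adjusted p = 0.0768), and it passed without WT pre-RPM replicate 3 (0.73, adjusted p = 0.0219) or without the filter (0.62, adjusted p = 0.00839). Without the filter, 265 genes were called in all against 59. The adjusted p of Pros1 ran up to 0.741 over the 7 alternative fits and up to 0.216 with 1 library left out. In the same pre-RPM libraries, some lists of markers of other cells were lower under that label. NK cell markers summed to 33.8 to 65.0 CPM against 81.9 to 152.6 CPM in WT, with Ncr1, Gzma and Prf1 called, B cell markers to 19.6 to 41.6 CPM against 47.0 to 67.7 CPM, with Ms4a1 and Pax5 called, and basophil and mast cell markers to 4.97 to 7.12 CPM against 9.98 to 34.6 CPM. Other lists ran the other way, with overlap. Neutrophil markers summed to 107.1 to 256.0 CPM under that label against 81.4 to 161.1 CPM in WT. Dendritic cell markers summed to 39.6 to 61.0 CPM against 21.4 to 49.4 CPM. The part of these lists in the Pros1 value was not tested. In monocytes, Pros1 differed by 0.50 with overlap (95% interval −0.32 to 1.32, adjusted p = 0.997). Among the 3 members tested in each cell type, Pros1 in pre-RPMs and Gas6 in RPMs had libraries that did not overlap between genotypes, where 4.97% and 4.33% of all genes tested did not overlap. At the RPM stage, Mfge8 was lower under the Il1rl1-/- label by 1.21 in mean log2 CPM, with counts too low to fit (exact permutation p = 0.0286, adjusted 0.136), and Gas6 in pre-RPMs was lower by 0.57 (exact permutation p = 0.0286, adjusted 0.136). The Gas6 counts behind it overlapped, 5 to 10 in WT and 3 to 6 under that label, and were apart only in CPM. Of the receptors with too few counts to fit, Mertk was lower by 0.92 in pre-RPMs and by 0.72 in monocytes and Tyro3 by 0.79 in RPMs, all with overlap (exact permutation p from 0.114 to 0.286). The range of RPM markers lay between 4447 and 5011 CPM in RPMs labelled Il1rl1-/- and between 3279 and 4383 CPM in WT RPMs, and neutrophil markers summed to 1.97 to 5.60 CPM against 10.2 to 13.5 CPM in WT, with S100a9 called. The part of both in the Gas6 and Mfge8 values was not tested.

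**Figure D4:**
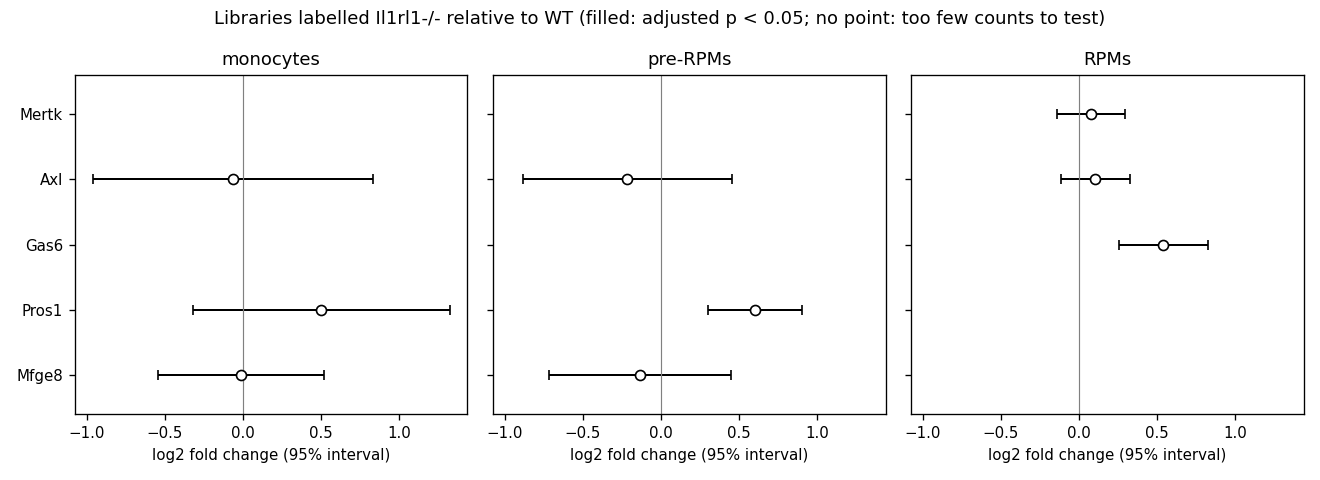
Log2 fold change of libraries labelled Il1rl1-/- relative to WT with its 95% interval, for the members that could be fitted in monocytes, pre-RPMs and RPMs (no point where counts were too few). No point is filled, since none passed an adjusted p of 0.05, and the intervals of Pros1 in pre-RPMs (0.30 to 0.90) and Gas6 in RPMs (0.26 to 0.82) do not hold 0.

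Whether the genotypes differed in the size of a step was tested as an interaction, and no member was called for any step. At the second step 0.107% of 12150 genes were called, over the whole path 0.0318% of 12592, and at the first step 0.0% of 11960, with 454 genes at an unadjusted p under 0.05 and 0 called by DESeq2. For Gas6 at the second step, the log2 fold change was higher under the Il1rl1-/- label by 1.35 (SE 0.38, unadjusted p = 0.00259, edgeR's adjusted p = 0.297). For Mfge8 it differed by −1.63 (SE 0.55, unadjusted p = 0.00784, edgeR's adjusted p = 0.424). For Mertk the difference was 1.76 (SE 0.66, adjusted p = 0.514), and without WT pre-RPM replicate 3 it was 0.69 (adjusted p = 0.858). Pros1 differed by −1.09 (SE 0.63, adjusted p = 0.752) and Axl by 0.32 (SE 0.39, adjusted p = 0.921). The Gas6 value rests on pre-RPM counts of 3 to 10, and over the whole path the difference of Gas6 was 0.14 (SE 0.75, edgeR's adjusted p = 1.00). Over that path Mertk differed by 1.89 (SE 0.74, adjusted p = 0.965) and Mfge8 by −1.75 (SE 0.51, adjusted p = 0.615). These 2 members also rest on few counts. Mertk had 1 to 4 counts in WT monocytes and 0 to 2 under the Il1rl1-/- label, and 1 to 22 and 1 to 7 in pre-RPMs. Mfge8 had 4 to 15 counts in WT RPMs and 2 to 4 under that label. The sizes of their differences, at the second step too, are therefore uncertain.

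The other genes of the bridging and engulfment pathway were read from lists by function, each member counted as called or not in the same fits. Of 14 other phosphatidylserine receptors, 9 were tested at the second step in WT. Of these, 4 rose and 1 fell, where 14.0% of all genes tested rose and 10.7% fell. Stab2 and Timd4, with 1 to 17 and 4 to 13 counts in WT pre-RPMs, passed the filter through the RPM libraries alone. Both had to rise to be tested, so that the number that rose is a description. Stab2 (stabilin-2) rose from 1.59 to 198.2 CPM, a log2 fold change of 6.89 (SE 0.34), and Timd4, a tethering receptor without a signalling domain, by 3.41 (SE 0.29), while Cd300lb fell from 58.7 to 6.99 CPM (−3.12, SE 0.15). The median log2 fold change over the 9 was 0.11 against −0.0012 for all genes tested. In the libraries labelled Il1rl1-/-, 3 rose and 2 fell, where 14.5% of all genes tested rose and 11.5% fell. Itgb5, the integrin subunit that pairs with alpha-v to bind Mfge8, rose in WT from 56.7 to 208.2 CPM (1.83, SE 0.15). Itgb3, the alternative partner of alpha-v, fell from 30.7 to 5.48 CPM (−2.46, SE 0.42). Of 3 Mfge8-binding subunits, 1 rose and 1 fell at the step at which Mfge8 fell. Over all genes tested, 14.0% rose and 10.7% fell. Both subunits moved the same way under the Il1rl1-/- label, by 1.96 (SE 0.096) and −4.00 (SE 0.21).

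The enzymes that gamma-carboxylate Gas6 and protein S were counted at low levels. None of 3 was called at the second step in WT, where 24.7% of all genes tested were called. Vkorc1, which recycles vitamin K, was at 1.03 (SE 0.32) there. Under the Il1rl1-/- label it was called at that step (1.39, SE 0.36), where 26.0% of all genes tested were called. Vkorc1 had 5 to 9 counts in WT pre-RPMs and 4 to 10 in those labelled Il1rl1-/-. It passed the filter through the RPM libraries alone and had to be higher there to be tested, so that its call is a description. Vkorc1 was higher in RPMs than in monocytes by a log2 fold change of 1.87 (SE 0.37) in WT and 2.04 (SE 0.36) under that label. Of 4 regulators of TAM receptor shedding, 1 was called at the second step in WT, against 24.7% of all genes tested. This was Rhbdf2, an adaptor of the sheddase Adam17, which rose by 1.23 (SE 0.12). Adam17 was lower in RPMs than in pre-RPMs by a log2 fold change of −0.92 in WT (adjusted p = 4.16e-06) and −0.89 under the Il1rl1-/- label (adjusted p = 8.86e-07), short of the fold required for a call, and Adam10 was at 0.0039 and −0.11. Of the other reported TAM ligands, Lgals3 was the 1 tested of 3, and it fell at the second step by −1.77 (SE 0.11) in WT and −1.48 (SE 0.10) under the Il1rl1-/- label, as Pros1 and Mfge8 did.

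Downstream of the receptors, 14 of 15 engulfment signalling genes were tested and 2 rose and 3 fell at the second step in WT, with a median of −0.32. These 5 of 14 compare with 24.7% called over all genes tested. Ptk2, with 8 to 15 counts in WT pre-RPMs, passed the filter through the RPM libraries alone. Ptk2 (focal adhesion kinase) rose from 3.07 to 81.5 CPM (4.68, SE 0.17) and Pik3r1, a regulatory subunit of PI3 kinase, by 1.21 (SE 0.10), whereas Dock1, the guanine nucleotide exchange factor that activates Rac with Elmo proteins, fell by −2.29 (SE 0.13) and Elmo2 by −1.54 (SE 0.10). At the first step in WT, Pik3r1 was called lower (−1.12, SE 0.16). Its WT means were 138.1 CPM in monocytes, 63.8 CPM in pre-RPMs and 152.4 CPM in RPMs. Of 9 nuclear receptors of phagocyte lipid sensing and their targets, 6 rose and 0 fell at that step in WT, against 14.0% and 10.7% of all genes tested, with a median of 1.66. Mylip, among those that rose, was called lower at the first step in WT (−1.50, SE 0.21). Its WT means were 66.3 CPM in monocytes, 23.6 CPM in pre-RPMs and 65.7 CPM in RPMs. Under the Il1rl1-/- label 6 rose and 1 fell, Ppard (−1.31, adjusted p = 1.27e-06), which in WT was at −0.90 (adjusted p = 0.000105), short of the fold required. Nr1h3, which encodes the oxysterol receptor LXR alpha, rose from 6.51 to 93.9 CPM (3.80, SE 0.12) and Abca1, a cholesterol exporter that it controls, from 18.1 to 140.5 CPM (2.91, SE 0.13). Abca1 was the only gene of these lists called for a difference between genotypes in a step, with a log2 fold change at the second step that was higher by 0.98 (SE 0.16, adjusted p = 0.00972) under the Il1rl1-/- label. Of 7 genes of the interferon receptor and cytokine suppression arm, none was called in WT at any step. Of all genes tested in WT, 3.57% were called at the first step, 24.7% at the second and 23.9% over the whole path. Socs3 fell at the second step by −1.91 (SE 0.19) under the Il1rl1-/- label, where 26.0% of all genes tested were called.

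The genes most like each member over the 24 libraries, by Pearson correlation of log2 CPM among 11658 genes with a mean log2 CPM of at least 1, were read as a description, since the points share 3 cell types and 8 mice. Closest to Mertk were Epb41l3 (r = 0.996), C6 (0.994) and Sema6d (0.994), with WT means of 5.26, 1.34 and 2.44 CPM in pre-RPMs and 248.0, 142.6 and 345.6 CPM in RPMs. Closest to Axl were Acp2 (r = 0.995), Hmox1 (0.994), the heme oxygenase, and Sdc3 (0.993). Hmox1 had 8.18, 30.6 and 1029 CPM in WT monocytes, pre-RPMs and RPMs, and like Axl had a higher mean at each stage. Closest to Gas6 were Kdelc2 (r = 0.985), Ndst1 (0.981) and Fcna (0.981). Pros1 was closest to Nfkb1 (r = 0.988), Emb (0.987) and Xylt1 (0.986), all with their highest mean in pre-RPMs and their lowest in RPMs in both genotypes. Mfge8 was closest to Runx3 (r = 0.954), Cnn2 (0.953) and Tagln2 (0.951), with means that decreased from monocytes through pre-RPMs to RPMs. Tyro3 was not kept by the filter over 24 libraries and has no such list.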

How the data were processed

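RNA-seq was analysed in 24 libraries, 4 of each of 6 groups. The 24 chromatin accessibility samples of the series were not analysed here. The deposited values are counts of read pairs per gene, without normalization by the authors. Per their methods, reads were trimmed with cutadapt 2.5 and aligned with STAR 2.5.1. Exons of Ensembl 95 (GRCm38) were counted by strand with featureCounts 1.6.2, per the file headers. The submitters' processing notes name cutadapt 2.8 and GRCh38, a human build, and the mouse build of the headers was used here.

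Each comparison fitted only its own groups, without a block, using edgeR 4.0.16 under R 4.3.3: low genes were removed with filterByExpr, libraries scaled by TMM, and the quasi-likelihood p-values adjusted after Benjamini-Hochberg over every gene in the fit. Calls between genotypes, and of interactions, required an adjusted p below 0.05. The SE came from the F statistic. TMM factors computed over all libraries (0.797 to 1.38) scaled the CPM, log2 CPM had a prior count of 2, and levels of different genes were compared after division by exon length. For members removed by the filter, exact permutation tests were run 2-sided (19 in all, adjusted together) in Python 3.11.15 with SciPy 1.17.1. The scripts were tested on simulated data.

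The limit of 3 counts corresponds to 0.457 to 0.842 CPM before scaling. No replicate pair matched within sampling noise (lowest chi-square per degree of freedom 3.85 over 36 pairs). Libraries with the same mouse number and genotype come from the same mouse by their labels, which pairs the cell types. Same-numbered libraries of the 2 genotypes deviated together (r over 0.1 in 4 of 4 pairs) in monocytes and RPMs but not in pre-RPMs (2 of 4). WT libraries correlated best with their own number in 2 of 4, 1 of 4 and 4 of 4 cases in monocytes, RPMs and pre-RPMs.

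The members and lists were chosen with earlier results of these data known. Genes named were drawn from the 6 members, up to 2 called genes per list and comparison of cell types with the largest rise and up to 2 with the largest fall, list genes called between genotypes, the 3 genes most correlated with each member, and markers. Not every list gene that met this rule was named. Adam10, Adam17 and Ppard were named after their values were seen. Alternatives were DESeq2 1.42.0, size factors by RLE, no filter beyond 1 count, a filter of 10 counts in every library, a common fit of the 24 libraries, the mouse number as a block, library sizes without Gm42418, and each library left out in turn.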

Additional observations from a re-analysis of the deposited data

Results flagged for a closer look

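Of 33 groups of 4 libraries tested for a single library far from the rest, 2 stood out, and chance gives about 1 in 20. Gas6 in RPM library 4 labelled Il1rl1-/- was below the other 3 in log2 CPM, with a gap of 0.854 of the whole range of the group. Pros1 in pre-RPM library 3 of that label was above the other 3, with a gap of 0.947 of the range. In both groups the whole range was small, from 27.7 to 31.8 CPM for Gas6 and from 21.8 to 26.8 CPM for Pros1.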

How the results depend on the processing

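The members called between cell types depended on the filter and, at the first step in WT, on the model. From monocytes to pre-RPMs in WT, 0 members were called, against 1 (Axl) with DESeq2, 1 with all 24 libraries in 1 fit, 1 with the mouse number as a replicate block, and 2 (Axl and Mertk) with every gene of at least 1 count. Leaving out each library gave 0 to 1 there (1 without WT monocyte replicate 3), and 1 to 2 under the Il1rl1-/- label. Among the members, the block changed 1 other call, Pros1 between genotypes in pre-RPMs (log2 fold change 0.62, adjusted p = 0.0214), where r was over 0.1 in 2 of 4 same-numbered pairs but every WT library correlated best with its own number (a hint from the data, not the design), and it raised the members called there from 0 to 1. A filter of 10 counts in every library left 1 of 5 called members in each of the 4 comparisons with RPMs, because it removed Mertk, Gas6, Pros1 and Mfge8 from the test. With every gene of at least 1 count, 1 member was called between genotypes in pre-RPMs (Pros1, 0.62, adjusted p = 0.00839), 1 in RPMs (Gas6, 0.57, adjusted p = 0.0102) and 1 in the interaction at the second step (Mertk, 1.75, adjusted p = 0.0137). Over all genes, that setting called 265, 272 and 224 in these comparisons, against 59, 26 and 13 as reported. Leaving out each library gave 0 to 1 member between genotypes in pre-RPMs, the 1 without WT pre-RPM replicate 3. Except for the filter of 10 counts, the cause was not tested. Genotype differences near 0 turned sign with a library left out: Axl from −0.32 to 0.20 and Mfge8 from −0.17 to 0.16 in monocytes, and Axl from −0.44 to 0.35 and Mfge8 from −0.27 to 0.20 in pre-RPMs. Interactions did too, at the first step for Axl (−0.41 to 0.41), Pros1 (−0.15 to 0.40) and Mfge8 (−0.29 to 0.22), at the second for Axl (−0.24 to 0.55), and over the whole path for Axl (−0.077 to 0.44) and Gas6 (−0.56 to 0.66). Without TMM factors, 2 of 6 members kept the order of their 6 group means. Without division by exon length, Axl held 75.8% of the receptor counts and Gas6 87.7% of the ligand counts in WT RPMs.

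The number of all genes called at the first step ranged from 217 to 1094 in WT (396 as reported) and from 264 to 1060 under the Il1rl1-/- label (543). At the second step it ranged from 1467 to 3411 in WT (2776) and from 1542 to 3740 (2973), and over the whole path from 1470 to 3703 (2769) and from 1536 to 3930 (3009). Between genotypes it ranged from 3 to 139 in monocytes (7), 17 to 265 in pre-RPMs (59) and 19 to 272 in RPMs (26). Depth limits Tyro3 in every group, and Mertk and Gas6 before the RPM stage.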
